A study of Mus musculus with 23 samples.

Results

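The genes described here are 7 receptors of the TNF receptor superfamily, Tnfrsf11b, Tnfrsf12a, Tnfrsf1a, Tnfrsf1b, Tnfrsf21, Tnfrsf10b and Fas, and the ligand Tnfsf10. They are 8 of the 54354 gene rows of the count table and were picked by symbol. Tnfrsf11b, which encodes osteoprotegerin, was selected on its higher level in GFP-positive libraries of the same data, so its difference between the sorted populations is given as a description with no test. The other 7 were chosen by family name.

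TNF family ligands are trimeric, mostly membrane-bound or shed proteins, and their receptors signal by recruiting adaptor proteins to their cytoplasmic tails. Receptors with a death domain, such as Fas and the TRAIL receptor encoded by Tnfrsf10b, can start caspase activation, whereas others recruit TRAF proteins and activate NF-κB. Osteoprotegerin is a secreted receptor without a membrane anchor. It binds RANKL and TRAIL and keeps them from their signalling receptors, and it is best known for restraining osteoclast formation in bone. In the intestine, TNF family receptors are known for controlling epithelial survival, inflammation and repair.

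The libraries came from mouse colon. AKP-tdT organoids carrying a Basp1-eGFP-DTR allele had been injected orthotopically into the colon, and the primary tumours were digested and sorted by flow cytometry into cells without GFP (GFP-negative, 12 libraries) and cells with GFP (GFP-positive, 11 libraries). Both populations therefore share the genotype labelled Basp1-GFP and the AKP-tdT background, and GFP status is the sole contrast that the labels give. The letters AKP and DTR are not spelled out in the labels, and no host strain, age or diet is given per sample. The extraction text names organoids where the design text names digested tumours. The reporter marks cells in which the Basp1 locus is active, so a GFP-negative sort can hold tumour cells and any other cell of the digest. No label says which animal a library came from, and p-values here reflect variation among libraries, some of which may be technical. By library number there are 2 series of libraries, set 1 with 6 GFP-negative and 5 GFP-positive libraries and set 2 with 6 of each, treated as a possible batch.

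Total counts ran from 25458 to 2304316 in GFP-negative libraries (median 144334) and from 37125 to 4238877 in GFP-positive ones (median 1418140). Depth therefore differed between the populations, and 3 GFP-negative libraries and 1 GFP-positive library held fewer than 100000 counts. Levels below are in CPM, a gene's counts scaled to a common library total, so a gene with 3 counts stands at 118 CPM in the shallowest library. Basp1 itself had a lowest, median and highest level of 0, 27.7 and 83.8 CPM in GFP-negative libraries and of 13.3, 51.3 and 108 CPM in GFP-positive ones, so its ranges overlapped. All 9 epithelial markers examined (among them Epcam and Krt8) had counts in both populations, with median sums of 4636 and 6173 CPM. Summed over 10 macrophage markers (among them Lyz2, C1qa and Csf1r), the median was 2561 CPM in GFP-negative and 350.2 CPM in GFP-positive libraries. Summed over 9 fibroblast markers it was 2607 and 337 CPM. Of 7 T and NK cell markers 2 had counts, nearly all of them of Trbc1, with median sums of 151 CPM without GFP and 273 CPM with GFP and up to 768 CPM in GFP-positive 2, while Cd3e, Cd3d and Cd3g were at 0 in every library. Of 4 B-cell markers 1 had counts, with a sum of at most 7.08 CPM.

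A pair of libraries stood apart. GFP-positive 3 had a macrophage marker sum of 31106 CPM against 1070 CPM in the next highest GFP-positive library. GFP-negative 6, whose library name carries the same identifier, had the lowest macrophage sum (396 CPM) and the highest epithelial sum (7659 CPM) of the 12 GFP-negative libraries. The next lowest macrophage sum without GFP was 864 CPM in GFP-negative 3, and the next highest epithelial sum 6466 CPM in GFP-negative 2. GFP-negative 6 was thus at the end of these ranges, and it also had the highest Tnfrsf11b level of all libraries, 984 CPM. Fold changes over all libraries are given below with and without this pair. For Tnfrsf11b, leaving the pair out removes values of the picked gene that go against its rise.

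Tnfrsf11b (ENSMUSG00000063727; mm10, chromosome 15, 54250619 to 54278484, minus strand) was detected in all 23 libraries. Its level in the GFP-negative libraries had a lowest value of 34.4, a median of 166 and a highest value of 984 CPM. In the GFP-positive libraries these were 137, 366 and 608 CPM. The mean was 234 ± 245 CPM (SD, n = 12) without GFP and 390 ± 129 CPM (SD, n = 11) with GFP. The populations overlapped through the pair that stood apart: GFP-negative 6 had the highest value of all libraries and GFP-positive 3 the lowest of the GFP-positive ones.

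**Figure D1:**
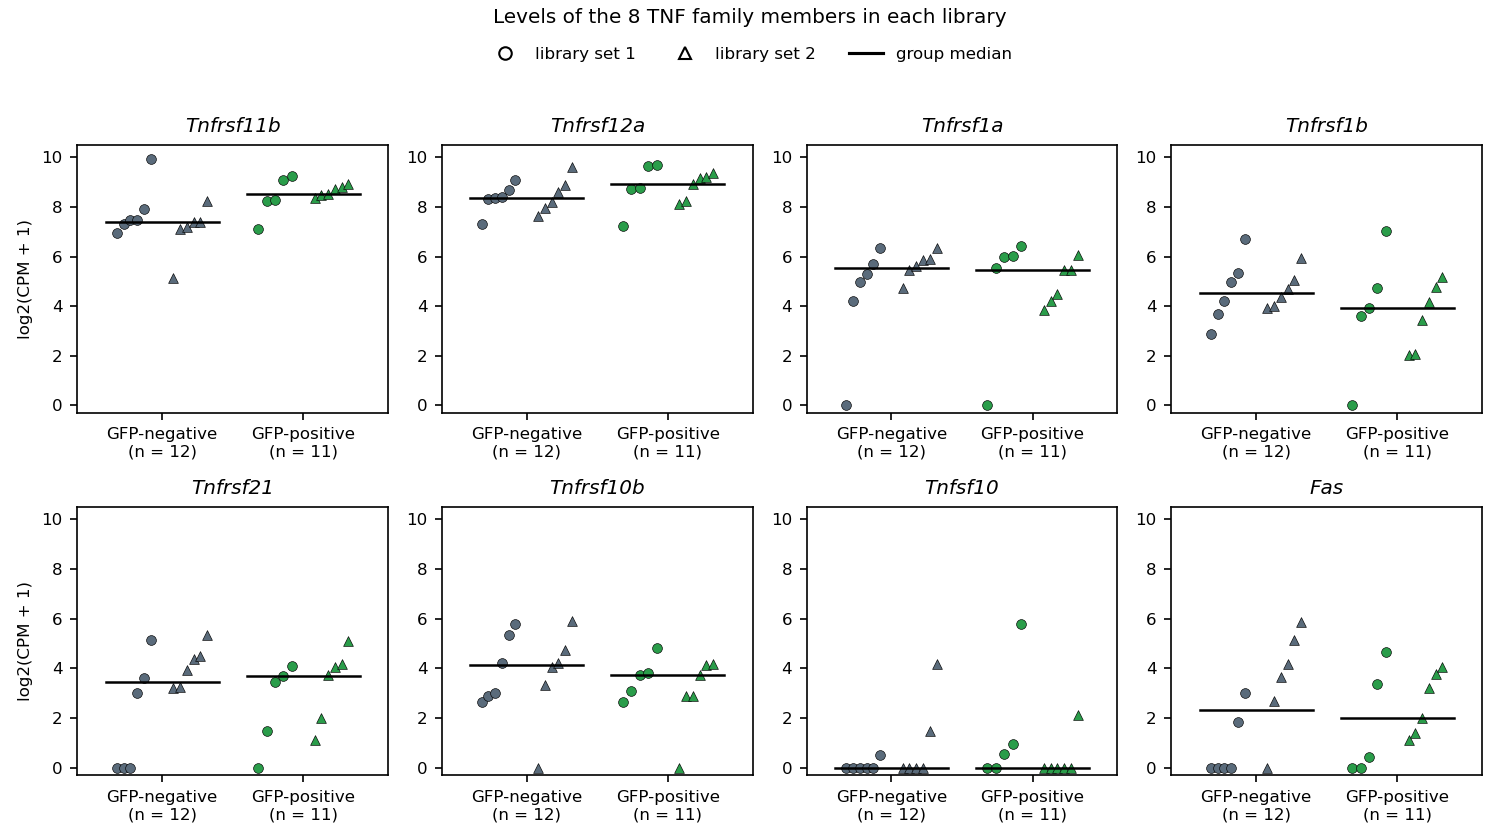
Level of each of the 8 genes in every library, as log2(CPM + 1); each point is 1 library (circles library set 1, triangles library set 2) and each line the median of a sorted population. Tnfrsf11b separates the populations in library set 2, where GFP-positive libraries lie at 331 CPM or more and GFP-negative ones at 299 CPM or less, while the points of the other genes overlap. Tnfrsf11b was picked for this rise, so its contrast with the other genes is no test. How many of all genes tested separate in this way was not computed.

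In library set 2 the ranges of Tnfrsf11b, which was picked for its rise, did not overlap. How many of all genes tested also had separate ranges was not computed. The 6 GFP-negative libraries had 34.4, 154 and 299 CPM as lowest, median and highest values, and the 6 GFP-positive libraries had 331, 395 and 480 CPM. The macrophage and fibroblast marker sums did not overlap in this set either: the former ran from 2304 to 6336 CPM without GFP and from 129 to 833 CPM with GFP, the latter from 1739 to 12311 CPM and from 236 to 1552 CPM. In library set 1 the 5 GFP-positive libraries had 300.3, 608, 137, 539 and 305 CPM. The 6 GFP-negative libraries of that set had 121 CPM at the lowest, a median of 177 CPM and 984 CPM in GFP-negative 6, the next highest being 241 CPM. Leaving out GFP-negative 6 and GFP-positive 3, every other GFP-positive library of set 1 was above every other GFP-negative one. These are the libraries that go against the rise for which the gene was picked, and they were set aside after seeing the data. That separation is therefore no test, and how many other genes separate after a like removal was not computed. Some of these values rest on few reads: GFP-negative 10, the lowest, held 4 counts of Tnfrsf11b and GFP-positive 4 held 20.

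Fitted across all genes with edgeR, the log2 fold change of Tnfrsf11b (GFP-positive minus GFP-negative) was 0.66 (SE 0.35, 95% interval -0.06 to 1.38) over all 23 libraries. It was 1.29 (SE 0.31, 0.66 to 1.93) in library set 2 and 0.12 (SE 0.54, -1.06 to 1.29) in library set 1. Without GFP-negative 6 and GFP-positive 3, a choice made after seeing the data, it was 1.25 (SE 0.23, 0.80 to 1.71) over all other libraries and 1.21 (SE 0.31) in set 1. Without GFP-negative 6 alone it was 1.17 over all libraries and 1.00 in set 1. Values below 0.66 were also found over all libraries. It was 0.51 (SE 0.41, -0.34 to 1.36) without libraries under 100000 counts, and 0.56 without GFP-negative 10 alone. The difference between the 2 sets was 1.19 on the log2 scale (SE 0.67, -0.19 to 2.57). These values describe a gene selected for this difference and support nothing about it.

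Library names that share an identifier may come from a common source, which the labels do not state. For 10 identifiers both populations were present, 1 of them read from names that share it only in part. Tnfrsf11b was higher in the GFP-positive member for 9 of them, with log2 ratios of 0.74 to 3.23, and lower for the identifier of the pair that stood apart, at -2.83. The median over the 10 was 1.22.

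**Figure D2:**
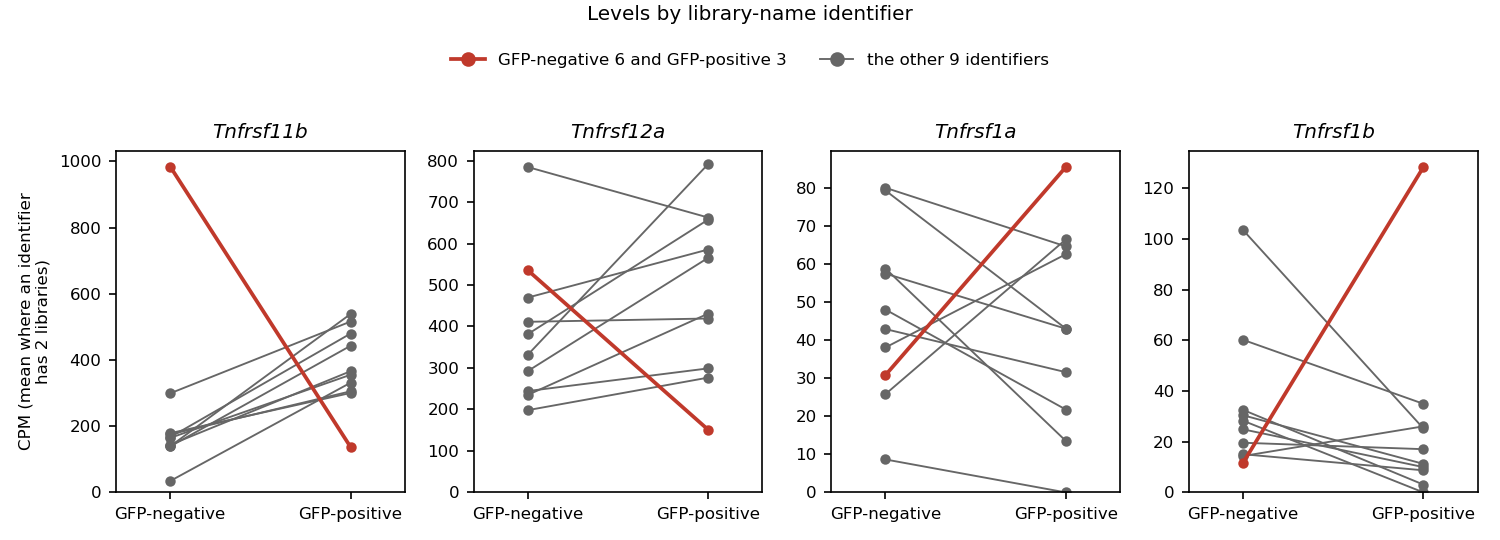
Tnfrsf11b, Tnfrsf12a, Tnfrsf1a and Tnfrsf1b levels in CPM (linear axes from 0) in GFP-negative and GFP-positive libraries joined by the identifier in their names; each line is 1 of 10 identifiers, and the red line joins GFP-negative 6 and GFP-positive 3. For Tnfrsf11b the 9 grey lines rise and the red line falls.

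The share of genes that passed an adjusted p of 0.05 gives the background for the family. Over all libraries edgeR's quasi-likelihood test called 1 of 6621 genes (0.0151%), and that gene, Fbln1, is named after seeing the result. It called 0 of 5256 genes (0%) in library set 1, where 284 had an unadjusted p under 0.05 and DESeq2 called 6. In library set 2 it called 89 of 6952 genes (1.28%), 3 higher and 86 lower in GFP-positive libraries. Without the pair that stood apart it called 27 of 6272 genes (0.43%). For the difference between the sets it called 0 of 6621 genes (0%), with 424 at an unadjusted p under 0.05; DESeq2 was not run for that difference. Of the 8 genes, 4 (Tnfrsf11b, Tnfrsf12a, Tnfrsf1a and Tnfrsf1b) passed the filter on low counts over all libraries and in set 1, and 6 passed in set 2, with Tnfrsf21 and Tnfrsf10b added. None of the genes chosen by family name was called in any of these comparisons: 0 of 3 over all libraries, 0 of 3 in set 1, 0 of 5 in set 2, 0 of 3 for the difference between sets and 0 of 3 without the pair. Their smallest unadjusted p over all libraries was 0.0649, for Tnfrsf12a. No call is read for Tnfrsf11b, which was chosen by this contrast. Fewer cells of a type and less RNA per cell cannot be told apart in these bulk libraries.

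**Figure D3:**
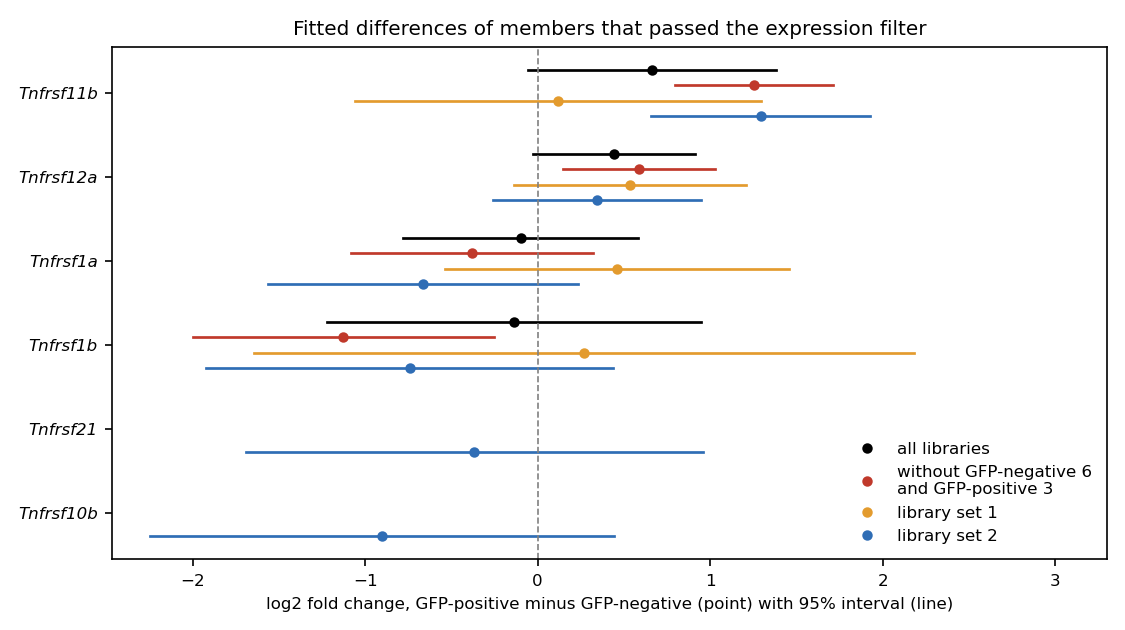
Log2 fold change (GFP-positive minus GFP-negative, point) with its 95% interval (line) for the genes that passed the filter, over all libraries, in each library set and without GFP-negative 6 and GFP-positive 3. The Tnfrsf11b values, shown as a description, are 0.66 over all libraries and 1.25 without the pair. The intervals of Tnfrsf12a and Tnfrsf1b exclude 0 only without the pair, where neither gene passed the adjustment over all genes, and the intervals of Tnfrsf1a span 0 in all 4 comparisons.

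Tnfrsf12a (ENSMUSG00000023905; chromosome 17, 23675445 to 23677468, minus strand) encodes Fn14, the small receptor for the ligand TWEAK, which is induced in injured and growing tissue. It had the most counts of the 8 genes, 13691 over all libraries. GFP-negative libraries had 156, 328 and 784 CPM as lowest, median and highest values, and GFP-positive libraries 151, 487 and 829 CPM. The means were 370 ± 169 CPM (SD, n = 12) and 500 ± 213 CPM (SD, n = 11). The ranges overlapped almost entirely, and the lowest GFP-positive value was again that of GFP-positive 3. The log2 fold change was 0.44 (SE 0.23, -0.03 to 0.91; edgeR adjusted p = 0.996). It was 0.54 (SE 0.32, adjusted p = 0.933 by edgeR) in set 1 and 0.34 (SE 0.29, adjusted p = 0.905 by edgeR) in set 2. Without the pair that stood apart it was 0.59 (SE 0.22, edgeR adjusted p = 0.393). Tnfrsf12a was higher in the GFP-positive member for 8 of 10 identifiers. The transcript of its ligand, Tnfsf12, did not pass the filter: the GFP-negative libraries held 26 counts of it together and the GFP-positive ones 42. These counts are not scaled for the greater depth of the GFP-positive libraries, so they give no direction, and the median level was 0 CPM in both populations.

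The receptors for TNF itself were measured at lower levels. Tnfrsf1a (ENSMUSG00000030341; chromosome 6, 125349362 to 125362484, plus strand) encodes the widely expressed TNFR1, which carries a death domain. Its lowest, median and highest levels were 0, 45.5 and 80.0 CPM without GFP and 0, 43.0 and 85.5 CPM with GFP. The medians were close and the ranges overlapped, with a log2 fold change of -0.10 (SE 0.34, -0.78 to 0.58; edgeR adjusted p = 0.997). The fold change was 0.46 (SE 0.48) in set 1 and -0.66 (SE 0.44) in set 2, where the adjusted p by edgeR was 0.865. The difference between sets was -1.15 (SE 0.66, -2.49 to 0.18; edgeR adjusted p = 0.783), so the opposite signs were not shown to differ. Without the pair that stood apart it was -0.38 over all other libraries (SE 0.35, edgeR adjusted p = 0.871). By identifier it was lower in the GFP-positive member for 7 of 10.

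Tnfrsf1b (ENSMUSG00000028599; chromosome 4, 145213463 to 145246870, minus strand) encodes TNFR2, a receptor without a death domain that is typical of immune cells. GFP-negative libraries had 6.35, 22.3 and 104 CPM as lowest, median and highest values, and GFP-positive libraries 0, 14.3 and 128 CPM. The highest value without GFP was 104 CPM in GFP-negative 1, with the next at 60.2 CPM, and the highest with GFP was 128 CPM in GFP-positive 3, with the next at 35.0 CPM. These libraries also had the highest macrophage marker sum of their population, 6617 CPM in GFP-negative 1 and 31106 CPM in GFP-positive 3. The log2 fold change was -0.14 (SE 0.53, -1.22 to 0.95; edgeR adjusted p = 0.997). It was 0.33 without GFP-negative 1 and -0.97 without GFP-positive 3. Without the pair that stood apart it was -1.13 (SE 0.43, edgeR adjusted p = 0.431). In set 2 it was -0.74 (SE 0.57, edgeR adjusted p = 0.898), the set in which the macrophage sums did not overlap. Tnfrsf1b was lower in the GFP-positive member for 8 of 10 identifiers.

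Relations of Tnfrsf11b, Tnfrsf12a, Tnfrsf1a and Tnfrsf1b with the epithelial, fibroblast and macrophage marker sums were computed on log2 levels within each population, over the libraries with at least 100000 counts. None of the 24 relations passed the adjustment for multiple tests: the smallest adjusted value was 0.0906 for Pearson's r and 0.146 for Spearman's rho. For Tnfrsf11b and the epithelial sum r was 0.86 (two-sided exact permutation p = 0.00679, adjusted 0.0906) and rho 0.70 (exact permutation p = 0.0433, adjusted 0.346) over 9 GFP-negative libraries. Without GFP-negative 10 and GFP-negative 6, the libraries farthest from the median epithelial sum, r was 0.29, so that relation rests on them. For Tnfrsf11b and the macrophage sum r was -0.71 (exact permutation p = 0.0227, adjusted 0.109) and rho -0.60 (exact permutation p = 0.0968, adjusted 0.465) in the same libraries, and r was -0.36 without GFP-negative 6 and GFP-negative 3. Over 10 GFP-positive libraries r was -0.82 (two-sided permutation p = 0.0215, adjusted 0.109) and rho -0.43 (permutation p = 0.220, adjusted 0.501), and r was -0.07 without GFP-positive 3 and GFP-positive 1. In both populations r of Tnfrsf11b for the macrophage sum moved toward 0 without the libraries farthest from the median of that sum. These had the lowest sums of the 9 GFP-negative libraries and the highest of the 10 GFP-positive ones. For Tnfrsf11b and the fibroblast sum over the 9 GFP-negative libraries r was -0.49 (exact permutation p = 0.207, adjusted 0.414). There r moved away from 0, to -0.82, without GFP-negative 3 and GFP-negative 2.

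Tnfrsf12a and the epithelial sum had r = 0.80 (two-sided permutation p = 0.00755, adjusted 0.0906) and rho = 0.73 (permutation p = 0.0205, adjusted 0.246) over 10 GFP-positive libraries, and r was 0.52 without GFP-positive 6 and GFP-positive 3. With the macrophage sum in the same libraries Tnfrsf12a had r = -0.75 (permutation p = 0.0182, adjusted 0.109) and rho = -0.39 (permutation p = 0.261, adjusted 0.521). That r was -0.80 without GFP-positive 3 and GFP-positive 1. Tnfrsf1b and the macrophage sum had r = 0.72 (two-sided exact permutation p = 0.0278, adjusted 0.111) and rho = 0.85 (exact permutation p = 0.00607, adjusted 0.146) over 9 GFP-negative libraries. Without the 2 libraries farthest from the median macrophage sum r was 0.51. Over 10 GFP-positive libraries r was 0.65 (two-sided permutation p = 0.0548, adjusted 0.188) and rho was 0.33 (permutation p = 0.349, adjusted 0.599). Without GFP-positive 3 and GFP-positive 1 r was -0.14, so that relation rests on those libraries. The library sets held 4 to 6 libraries of a population each, too few to give these relations within sets. The permutations took no account of set. Over all GFP-negative libraries the median macrophage sum was 1007 CPM in set 1 and 5002 CPM in set 2, and the fibroblast median 480 and 4574 CPM. With GFP the macrophage medians were 362 and 217 CPM. A relation with a marker sum and a difference between sets therefore cannot be told apart here.

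**Figure D4:**
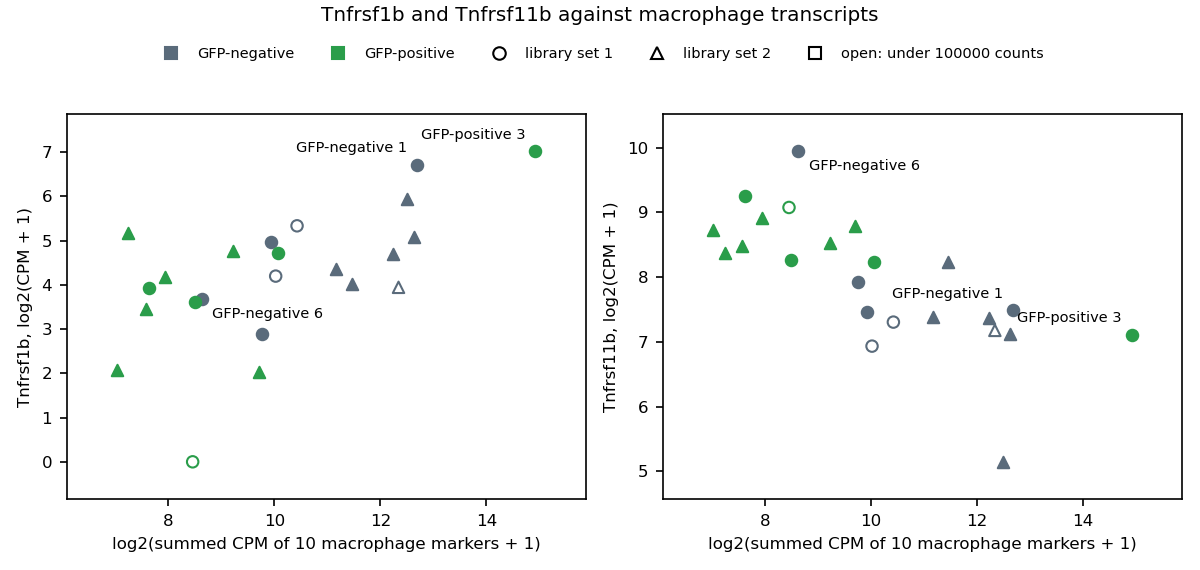
Tnfrsf1b (left) and Tnfrsf11b (right) against the summed level of 10 macrophage markers, both as log2(CPM + 1); each point is 1 of 23 libraries, coloured by sorted population, with circles for library set 1, triangles for set 2 and open symbols for libraries under 100000 counts. GFP-positive 3, at 31106 CPM of macrophage markers, has the highest Tnfrsf1b (128 CPM) and the lowest Tnfrsf11b (137 CPM) of the GFP-positive libraries.

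The TRAIL ligand was near the limit of detection. Tnfsf10 (ENSMUSG00000039304; chromosome 3, 27317028 to 27342427, plus strand) encodes TRAIL, a death-inducing ligand that osteoprotegerin also binds. The GFP-negative libraries held 5 counts of it together, with 9 of 12 at 0, and the GFP-positive libraries 19, with 7 of 11 at 0. GFP-positive 8 held 13 of those 19 counts. A level of 53.9 CPM in the shallow library GFP-positive 4 stood for 2 counts. Summed over libraries, the level was 0.822 CPM without GFP and 1.01 CPM with GFP. A difference was not detectable at this depth (log2 fold change 0.30, SE 1.36, -2.42 to 3.02; edgeR without the filter, adjusted p = 0.966), and it was 0.18 (SE 1.74) without the pair that stood apart.

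Tnfrsf10b (ENSMUSG00000022074; chromosome 14, 69767472 to 69784411, plus strand) encodes the mouse death receptor for TRAIL. Its lowest, median and highest levels were 0, 16.5 and 58.8 CPM without GFP and 0, 12.3 and 26.9 CPM with GFP, with 281 counts in all. The ranges overlapped, and the highest GFP-negative value, in GFP-negative 11, stood for 6 counts. Without the filter the log2 fold change was -0.70 (SE 0.51, -1.71 to 0.32; edgeR adjusted p = 0.612), and -0.76 (SE 0.53) without the pair as well. In set 2, where the gene passed the filter, it was -0.90 (SE 0.65, edgeR adjusted p = 0.889).

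Tnfrsf21 (ENSMUSG00000023915; chromosome 17, 43016555 to 43089189, plus strand) encodes DR6, a death-domain receptor studied mainly in neurons and lymphocytes. It also had 281 counts in all, with 0, 9.94 and 39.2 CPM as lowest, median and highest values without GFP and 0, 11.8 and 33.5 CPM with GFP. The log2 fold change was -0.08 (SE 0.54, -1.15 to 0.99; edgeR without the filter, adjusted p = 0.981), -0.12 (SE 0.57) without the pair and -0.37 (SE 0.65, edgeR adjusted p = 0.945) in set 2. Fas (ENSMUSG00000024778; chromosome 19, 34290666 to 34327772, plus strand) encodes the death receptor for FasL. It had 209 counts, and its lowest, median and highest levels were 0, 3.97 and 57.5 CPM without GFP and 0, 2.94 and 24.1 CPM with GFP. It was at 0 in 5 of 12 GFP-negative and 2 of 11 GFP-positive libraries, and 57.5 CPM in GFP-negative 12 stood for 4 counts. The highest GFP-positive value was in GFP-positive 3, with 51 counts. The log2 fold change was -0.46 (SE 0.66, -1.77 to 0.86; edgeR without the filter, adjusted p = 0.789). Without the pair it was -1.09 (SE 0.65, -2.38 to 0.21; edgeR without the filter, adjusted p = 0.449).

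Divided by the length of the gene's merged exons, so that genes can be compared, Tnfrsf12a had the highest median level in both populations, 170 CPM per kilobase without GFP and 252 CPM per kilobase with GFP. Tnfrsf11b came next, at 58.8 and 130 CPM per kilobase, and Tnfrsf12a was above it in 11 of 12 GFP-negative and 10 of 11 GFP-positive libraries. Tnfrsf1a followed at 17.6 and 16.6 CPM per kilobase and Tnfrsf1b at 5.83 and 3.74. The medians of Tnfrsf10b, Tnfrsf21 and Fas lay between 1.43 and 3.02 CPM per kilobase, and that of Tnfsf10 was 0 in both populations. Among neighbours in this order, the ranges were separate for 1 pair only, Tnfrsf11b above Tnfrsf1a in GFP-positive libraries. Tnfrsf11b was picked for its rise in those libraries, so this separation is a description. It was also above Tnfrsf1a in each of the 12 GFP-negative libraries, though the ranges overlapped there.

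The counterparts of osteoprotegerin in bone were scarce. Tnfsf11, which encodes RANKL, had no count in any library. Tnfrsf11a, which encodes its signalling receptor RANK, summed to 40 counts in GFP-negative and 146 in GFP-positive libraries and did not pass the filter. These sums are not scaled for the greater depth of the GFP-positive libraries. The median levels were 0 CPM without GFP and 3.19 CPM with GFP.

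For the rest of the pathway, 4 lists of related genes were read in the same all-library fit. No gene of any list was called, against 0.0151% of all genes tested. Of 17 other TNF family ligands, 2 passed the filter and both had a positive log2 fold change, with a median of 0.34. Of 21 other receptors, 5 were tested, 4 with a positive and 1 with a negative value, with a median of 0.12. Of 12 genes of death signalling, 10 were tested, 5 in each direction, with a median of 0.12. Of 21 genes of TRAF and IKK signalling, 11 were tested, 7 positive and 4 negative, with a median of 0.11. Over all 6621 genes the median was 0.07, with 3873 positive and 2748 negative values. Without the pair that stood apart no list gene was called either, against 0.43% of all genes, and the medians were 0.01 for ligands, 0.29 for receptors, 0.36 for death signalling and 0.05 for TRAF and IKK signalling, beside 0.06 over all 6272 genes.

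**Figure D5:**
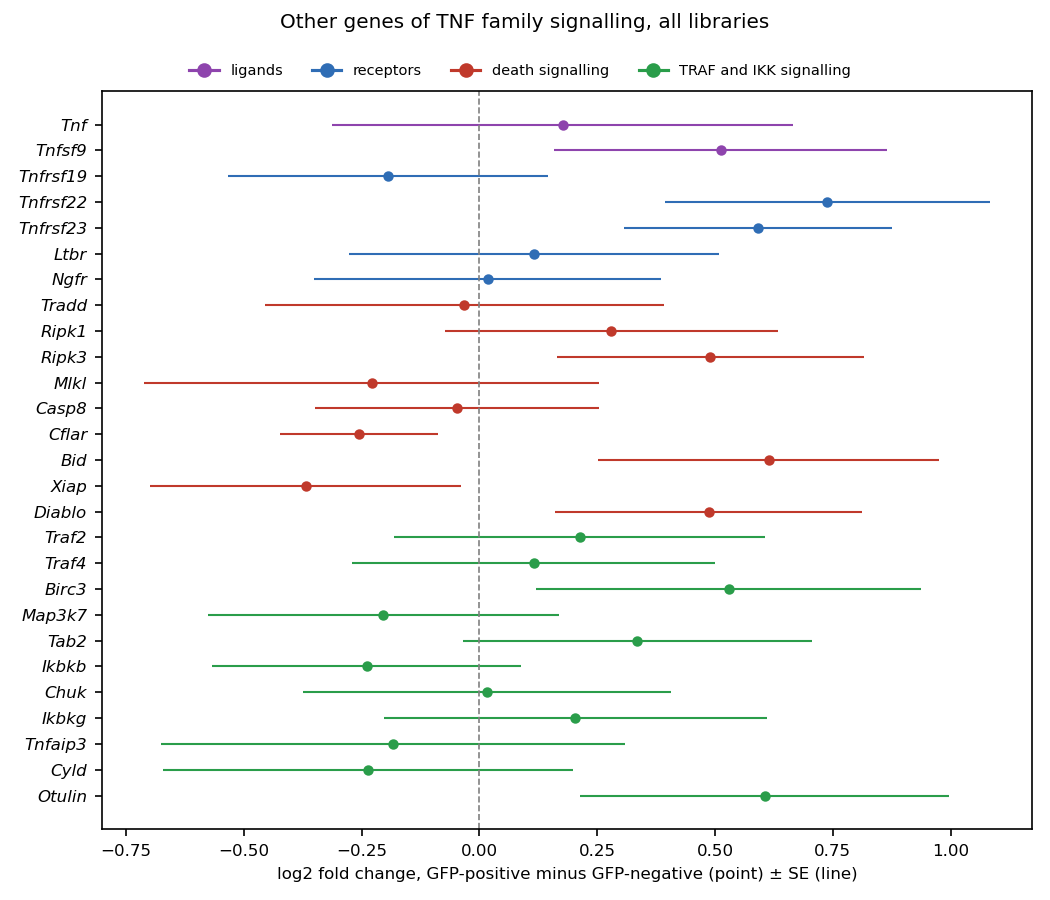
Log2 fold change (GFP-positive minus GFP-negative, point) ± SE (line) of 27 of the 28 other genes of TNF family signalling that passed the filter over all libraries, coloured by list. The values lie on both sides of 0, and none passed an adjusted p of 0.05.

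Among the ligands, Tnf, the founding member, had medians of 41.2 CPM without GFP and 41.5 CPM with GFP (log2 fold change 0.18, SE 0.49, edgeR adjusted p = 0.997), and its fold change was -0.23 (SE 0.46) without the pair. Tnfsf9, which encodes the ligand of the costimulatory receptor 4-1BB, had medians of 30.7 and 46.1 CPM (0.51, SE 0.35). Of the 5 receptors tested, 2 had an unadjusted p under 0.05 by edgeR, as did 328 of all 6621 genes. They were the mouse decoy TRAIL receptors Tnfrsf22 (0.74, SE 0.34) and Tnfrsf23 (0.59, SE 0.28), both with an edgeR adjusted p of 0.992. Without the pair they were 0.87 (SE 0.36, edgeR adjusted p = 0.495) and 0.73 (SE 0.28, edgeR adjusted p = 0.438). In set 2 they were 0.43 and 0.62 (edgeR adjusted p = 0.928 and 0.833), and no receptor of the list had an unadjusted p under 0.05. Their medians were 24.3 and 51.3 CPM for Tnfrsf22 and 66.1 and 95.2 CPM for Tnfrsf23, in GFP-negative and GFP-positive libraries. Both are related in sequence, and how the counting divided reads between them is not known. Ngfr, the p75 neurotrophin receptor, had a log2 fold change of 0.02 (SE 0.37).

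In death signalling, genes with high levels included Cflar, which encodes the caspase-8 inhibitor c-FLIP, and Ripk3, a kinase of necroptosis. Cflar had medians of 569 CPM without GFP and 461 CPM with GFP (log2 fold change -0.26, SE 0.17). Ripk3 had medians of 44.4 and 61.5 CPM (0.49, SE 0.33). In NF-κB signalling, Tnfaip3, which encodes the feedback inhibitor A20, had medians of 36.5 and 70.1 CPM but a log2 fold change of -0.18 (SE 0.49), and of -0.60 (SE 0.46) without the pair. Ikbkb, a kinase of the IKK complex, stood at -0.24 (SE 0.33) and Tab2, an adaptor of the kinase TAK1, at 0.34 (SE 0.37). Over all libraries these 5 genes had an edgeR adjusted p of 0.997.

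The 5 genes whose levels followed Tnfrsf11b most closely were found by Spearman's rho of log2 CPM over the 19 libraries with at least 100000 counts, as a description with no test. They were Cops5 (rho 0.89), a subunit of the COP9 signalosome, Riok2 (0.82), a kinase of ribosome assembly, Zfp617 (0.81), a zinc-finger gene, Anxa1 (0.81), which encodes annexin A1, and Paics (0.81), an enzyme of purine synthesis. For Cops5 rho was 0.72 within the 9 GFP-negative and 0.94 within the 10 GFP-positive libraries, and for Anxa1 it was 0.80 and 0.71. Over the 17 libraries without the pair, rho of the 5 genes was 0.76 to 0.89. These libraries share differences in depth and cell makeup, which enter every such rho. Where both populations are pooled, the difference for which Tnfrsf11b was picked enters too, also in the ranks that follow. Within the family, Tnfrsf12a had a rho of 0.51 with Tnfrsf11b over the 19 pooled libraries and ranked 372 of 6620 genes. Tnfrsf1a (-0.55) and Tnfrsf1b (-0.67) ranked near the opposite end, and Basp1 had a rho of -0.17.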

How the data were processed

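The authors deposited 1 table of expected counts per gene, made with Salmon 1.3.0 against mm10 per the submitters' processing notes. The annotation is not given in the sources used here. Libraries were poly(A)-selected and directional per the labels' protocols. All values were whole numbers, so none was rounded, and 1243 genes without a symbol were kept by identifier. Libraries were grouped by the GFP label. Counts were analysed with edgeR 4.0.16 (TMM, filterByExpr by group, robust quasi-likelihood fit, Benjamini-Hochberg at 0.05) in R 4.3.3, over all libraries, within each library set and for their interaction. The fit was tested on simulated data. SE is the log2 fold change over the root of F. Genes below the filter were read from a fit without it over 23846 genes. DESeq2 1.42.0, limma 3.58.1 voom with quality weights, upper-quartile factors, no filter, a library-set covariate, blocks by name, and leaving out libraries were alternatives. Identifier ratios add 1 CPM and average libraries that share an identifier and population. GFP-negative 4 and GFP-negative 5, whose names each hold 1 part of the joined identifier of GFP-positive 4, were read as sharing it and averaged. For another identifier GFP-positive 2 of set 1 and GFP-positive 7 of set 2 were averaged and compared with GFP-negative 8 of set 2. Correlations used scipy 1.17.1 (exact permutation, or 100000 resamples). Coordinates and exon lengths came from GENCODE M21 (mm10), matched by gene identifier for all 8 genes. The members, marker genes and pathway lists were chosen with earlier results of these data known. Genes named are the 8 members, Basp1, for each pathway list the 3 tested genes with the highest mean level, and the 5 genes most like Tnfrsf11b, except that some genes are not reported here; Fbln1, Tnfsf11, Tnfrsf11a and Tnfsf12 were added after their values were seen. No replicate pair was a repeat of 1 library: the lowest chi-square per degree of freedom over 121 pairs of libraries of 1 population was 2.83, where sampling alone gives 1.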

Additional observations from a re-analysis of the deposited data

Results flagged for a closer look

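In groups of 5 or 6 libraries (1 population of 1 library set), the highest or lowest library was compared with the nearest other one by Dixon's 95% criterion. Its rate of about 1 group in 20 by chance holds for normally distributed values, which CPM with many zeros and unequal depth are not. Of 32 groups, 9 met the criterion, each through its highest library, and this count cannot be set against that rate. Tnfrsf11b stood at 984 CPM in GFP-negative 6, against 241 CPM in the next library of its group. Tnfrsf1b stood at 104 CPM in GFP-negative 1, against 39.3 CPM, and at 128 CPM in GFP-positive 3, against 25.2 CPM. GFP-negative 1 and GFP-positive 3 also had the highest macrophage marker sums of their populations, 6617 and 31106 CPM. Tnfrsf21 stood at 34.6 CPM in GFP-negative 4, which was 2 counts. Fas stood at 7.06 CPM in GFP-negative 1, which was 3 counts. Tnfsf10 met the criterion in all 4 groups, on 1 to 13 counts: 0.434 CPM in GFP-negative 6, 53.9 CPM in GFP-positive 4, 17.2 CPM in GFP-negative 10 and 3.33 CPM in GFP-positive 8. For GFP-negative 6 and GFP-positive 8 every other library of the group stood at 0, where any count meets the criterion.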

How the results depend on the processing

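Of 298 alternative values of the members' fold changes, 8 changed sign, and in each of the 8 the gene was not called in that comparison. The others kept their sign, and 2 of them, both of Tnfrsf11b in set 1, were marked as moved. Some of the remaining 288 also moved by more than their error. Without GFP-negative 6 and GFP-positive 3, Tnfrsf11b went from 0.66 to 1.25 over all libraries and Tnfrsf1b from -0.14 to -1.13. Leaving out 1 library at a time gave Tnfrsf1a -0.29 to 0.019 and Tnfrsf1b -0.97 to 0.33 over all libraries, Tnfrsf12a 0.31 (without GFP-positive 2) to 0.78 (without GFP-positive 3) in set 1 and 0.22 (without GFP-positive 10) to 0.62 (without GFP-negative 11) in set 2, and Tnfrsf11b -0.15 to 1.00 in set 1, where it was negative without GFP-negative 1 or GFP-positive 2 and 1.21 without GFP-negative 6 and GFP-positive 3. Without a filter and without libraries under 100000 counts, Tnfrsf21 was 0.027 and Tnfsf10 -0.98. The number of genes called over all libraries (1) was 24 with DESeq2, 27 without GFP-negative 6 and GFP-positive 3, and 0 to 16 when 1 library was left out. It was 16 without GFP-positive 3, 3 without GFP-positive 1, and 0 without any 1 of 10 GFP-negative libraries (all but 3 and 4). In set 1 (0) it was 6 with DESeq2, 14 without that pair and 0 to 6 with 1 library left out, 6 being without GFP-negative 6. In set 2 (89) it was 142 with DESeq2 and 375 without a filter. The interaction (0) gave 1 without a filter.

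Libraries that share an identifier did not deviate together throughout: over 12 pairs r ran from -0.28 to 0.51 (median 0.15, 7 over 0.1), against a median of -0.02 and 31 of 120 over 0.1 for libraries of different identifiers, and 5 of 11 GFP-positive libraries correlated best with their own identifier's GFP-negative library. The identifier was not used as a block in the reported values, because no label states a common source and not every pair was over 0.1. The second reason is no test of pairing, and the median was higher within identifiers than between them. The reported p-values therefore take no account of any pairing. With a replicate block by identifier 2 genes were called over all libraries and 140 in set 2; without GFP-negative 6 and GFP-positive 3 as well, 89 were called over all libraries. With a replicate block by title number, where 3 of 11 pairs were over 0.1, it was 0. With the replicate block by identifier and by title number, Tnfrsf11b was 1.01 and 0.94 over all libraries and Tnfrsf1b -0.73 and -0.80 (-0.14 with no block), and in set 1 the identifier block gave -0.26 for Tnfrsf1b and 0.09 for Tnfrsf12a. The alternatives without that pair, and those that join a block or no filter with libraries left out, were chosen after seeing the data. Depth limits Tnfsf10, Fas, Tnfrsf21 and Tnfrsf10b most.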
